A study of Mus musculus with 4 samples.

Results

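Circular RNAs (circRNAs) of the mouse lung were compared between the canalicular stage at embryonic day 16.5 and the pseudoglandular stage at embryonic day 14.5. A junction read is one that crosses the back-splice junction, and the members are all circRNAs whose junction reads in both libraries add up to 10 or more. There were 1017 of them, among 7995 distinct circRNAs listed in the 2 libraries and 13499 in all 4 libraries of the study. Both groups were lung tissue of C57BL/6 mice, for which the labels name no genotype beyond the strain and no treatment, and total RNA was sequenced. Each stage was 1 library, and the labels do not say how many embryos it held. The study also holds 1 terminal sac library (embryonic day 18.5) and 1 alveolar library (postnatal day 7.5), whose reads are given beside some circles and enter no comparison. With 1 library a stage there was no replicate check, so no p-value is given and a difference describes these 2 libraries.

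A circRNA forms when the splice donor at the end of an exon is joined backwards to the acceptor at the start of the same or an earlier exon. It has no free ends, resists exonucleases and outlives most linear RNA, and many circles start at exon 2 of their host gene. In the pseudoglandular stage the epithelium of the lung branches into a tree of tubes inside mesenchyme. In the canalicular stage the distal tubes widen, capillaries come close to the epithelium, and the precursors of the gas-exchange cells become distinct.

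In all, 4599 circRNAs and 25983 junction reads were listed for the pseudoglandular lung, and 4947 and 31218 for the canalicular one. In each, 39.3% and 37.6% of the circRNAs had 2 reads, the lowest number listed. The members held 58.0% of pseudoglandular and 60.2% of canalicular junction reads, and 906 of the 1017 were listed in both libraries, 44 in the pseudoglandular alone and 67 in the canalicular alone. Host genes gave exonic circles for 977 members and intronic ones for 16, and 24 members had no deposited host. Both ends lay at annotated exon boundaries of 1 transcript for 911 members, or 89.6%. Lung genes were thinly covered: of 20 lung epithelial transcription and splicing factors 8 had a circRNA in either library, and the defining factor Nkx2-1 had none. The genes of the surfactant proteins Sftpa1, Sftpb, Sftpc and Sftpd had none either.

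The junctions below are shown because they are what was counted. They belong to the 6 circles highest and the 6 lowest in the canalicular library, in the order defined further on, among those that were listed in both libraries, had both ends at exon boundaries and lay inside the coding sequence. The circles of Fech and Cep192, which come before Glis3 in that order, are not shown. Each line reads 5′ to 3′ across the back-splice, with the last 20 bases of the last exon in lower case and the first 20 bases of the first exon in capitals. The letters were taken from the GENCODE M21 transcripts (build mm10), since the deposited lists hold none. The first 6 were higher in the canalicular library.
Ascc2 exons 3 to 5: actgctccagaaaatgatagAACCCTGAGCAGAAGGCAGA
Pias1 exons 3 to 7: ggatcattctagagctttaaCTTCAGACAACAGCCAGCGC
Mrc1 exons 12 to 15: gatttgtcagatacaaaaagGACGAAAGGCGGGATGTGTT
Klf7 exon 2: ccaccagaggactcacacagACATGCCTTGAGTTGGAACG
Glis3 exon 4: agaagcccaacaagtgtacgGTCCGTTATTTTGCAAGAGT
Nktr exons 3 to 6: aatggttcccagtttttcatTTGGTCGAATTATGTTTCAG
The other 6 were lower.
Ttn exons 123 to 127: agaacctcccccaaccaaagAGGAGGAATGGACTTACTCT
Rbm33 exons 2 to 5: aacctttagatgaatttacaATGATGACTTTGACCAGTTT
Rapgef6 exons 2 to 6: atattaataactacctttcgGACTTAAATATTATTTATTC
Tlk1 exons 2 to 3: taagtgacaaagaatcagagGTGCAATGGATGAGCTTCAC
Rtn4 exons 2 to 3: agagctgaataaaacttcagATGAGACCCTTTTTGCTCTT
Nemf exons 23 to 25: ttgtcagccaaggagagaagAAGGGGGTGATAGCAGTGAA

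Each circle was compared by its share of the junction reads of its library, as the ratio of the canalicular to the pseudoglandular share with an exact 95% interval. A difference of 2-fold or more with an interval that did not include 1 was called higher or lower. The intervals cover counting error only, and reads without molecular identifiers are not independent molecules. Where a library did not list a circle, 3 reads were entered for it, which is 0.0116% of pseudoglandular and 0.00961% of canalicular junction reads. Its fold is then given as a lower bound, which holds only if that library had 3 or fewer reads of the circle. Reads listed under a nearby end can break this bound, as in the pseudogene Nlrp5-ps below. The interval of such a fold was computed with the 3 entered reads, so it can reach below the bound. Under this rule 83 circles were higher in the canalicular library, 8.16% of the 1017, and 100 were lower, 9.83%. The other 834 were neither, and they held 48.7% of pseudoglandular and 51.4% of canalicular junction reads. The median log2 ratio over all members was 0.063, with an interquartile range from -0.70 to 0.87.

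Scaling bears on this split. When the libraries were scaled by their summed non-junction reads, the reads that pass linearly over the same ends, every log2 ratio rose by 0.18. The calls then became 130 higher and 76 lower, and the 83 higher circles were all among the 130. With a median of ratios they were 99 and 85. A balance between higher and lower circles is therefore not given, and a direction below is relative to all listed junction reads.

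Few of the most abundant circles were called. None of the 12 circles with most reads in the pair was called. The most abundant, a circle of Tulp4, a tubby-like protein gene, with no M21 exon match, had 450 pseudoglandular and 488 canalicular reads. Next came exons 35 to 39 of Col4a1, a basement membrane collagen, with 277 and 412. Exons 2 to 7 of Strn3, a striatin scaffold gene, had 247 and 349, and exons 2 to 4 of Mettl9, a histidine methyltransferase gene, had 178 and 240. Of the circles with 100 or more reads in the pair 4 of 55 were called, or 7.27%, against 82 of 310, or 26.5%, of those with 20 to 49 reads. At exactly 10 reads, just inside the limit, 8 of 116 circles were called. Another 148 circles with 9 reads fell just outside it.

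**Figure D1:**
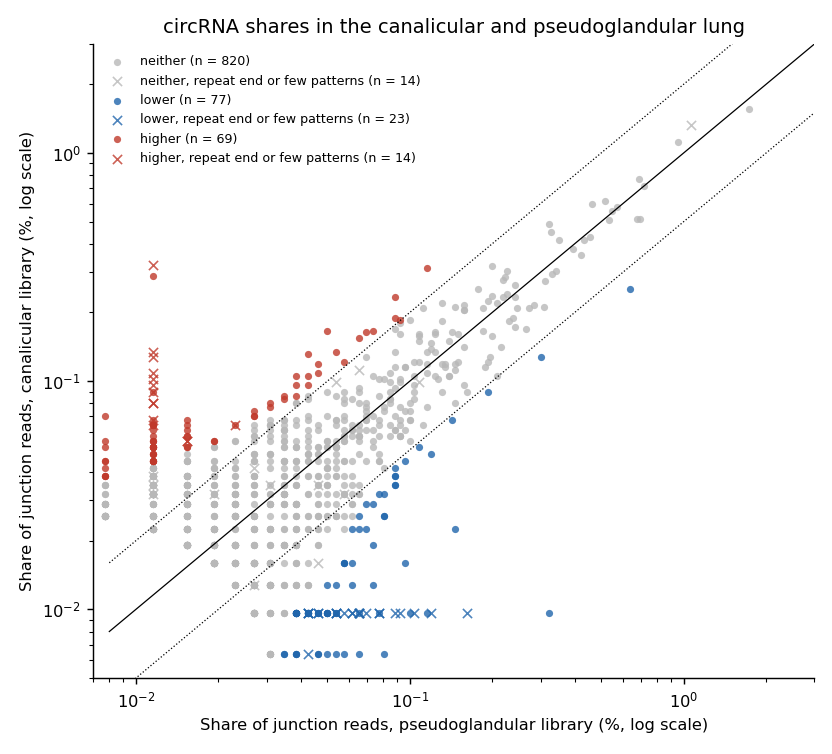
Share of junction reads of each of the 1017 circRNAs in the pseudoglandular (x) and canalicular (y) library, in percent on log axes, with circles listed in 1 library drawn at 3 reads in the other. The solid line is equality and the dotted lines are 2-fold, crosses have a repeat at their ends or few alignment patterns, and the most abundant circles, at the upper right, lie inside the dotted lines.

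Part of the calls rest on junctions set apart here by a repeat in the M21 transcript, or by few of the alignment patterns that the deposited columns count. In 23 members the spliced transcript carries the same run of 6 or more bases at the circle's start and end. In 38 the reads gave fewer than 1 alignment pattern per 2 reads, counted up to 50 reads. That limit was set after the values had been seen. Together these were 51 circles, here called marked circles, of which 37 were called and 35 were listed in 1 library alone. They were 14 of the 83 higher and 23 of the 100 lower circles.

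The repeats at the ends of 4 collagen and fibrillin circles are shown here, since these genes gave many of the widest differences. In each pair of lines the capitals mark the repeat, first at the start of the circle and then at its end, with 10 bases of M21 transcript on either side.
Col1a2 exons 32 to 34, start: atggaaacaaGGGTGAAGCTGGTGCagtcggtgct
Col1a2 exons 32 to 34, end: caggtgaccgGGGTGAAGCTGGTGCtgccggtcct
Col4a1 exons 24 to 27, start: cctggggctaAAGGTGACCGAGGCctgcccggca
Col4a1 exons 24 to 27, end: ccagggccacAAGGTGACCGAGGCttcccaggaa
Fbn1 exons 44 to 49, start: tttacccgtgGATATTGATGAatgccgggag
Fbn1 exons 44 to 49, end: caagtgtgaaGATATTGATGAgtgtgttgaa
Col16a1 exons 23 to 25, start: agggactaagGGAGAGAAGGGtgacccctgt
Col16a1 exons 23 to 25, end: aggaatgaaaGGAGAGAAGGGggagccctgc

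The shared run was 15 bases in Col1a2, 14 in Col4a1 and 11 in both Fbn1 and Col16a1. The Col1a2 circle had 17 pseudoglandular reads and no canalicular ones, and the Col4a1 circle had none and 101. For Fbn1, which codes for the microfibril protein fibrillin, the reads were 12 and 0. For Col16a1 they were 16 and 0. All 4 circles were thus listed in 1 of the 2 libraries. The part of the repeats or of the few patterns in these differences was not tested, and the circles described next are unmarked unless stated.

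Among unmarked circles listed in both libraries, 56 were higher and 55 were lower in the canalicular lung. The fold of the higher circles listed in both ran from 2.01 to 9.16 with a median of 3.33, and that of the lower ones from 2.10 to 12.6 with a median of 3.96. These differences rest on few reads: 21 of the 56 and 22 of the 55 had 3 or fewer reads in the lesser library. Circles are ordered here by whichever limit of the interval lies closer to 1. The leading 12 of each direction are described by what their host gene does.

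Of the higher circles, 5 are given first whose genes act in transcription or chromatin, a grouping made after their values were seen. Exon 2 of Ep400 (chr5:110755397-110756766), the ATPase of a histone-acetylating remodelling complex, had 30 pseudoglandular and 98 canalicular reads. Its share was 2.72-fold higher (95% interval 1.79 to 4.24), and the terminal sac and alveolar libraries listed 116 and 71 reads. Exon 4 of Glis3 (chr19:28530873-28531986), a zinc-finger transcription factor, went from 23 to 73 reads, 2.64-fold (1.63 to 4.42). Exons 2 to 8 of Creb1, the factor that answers cyclic AMP, went from 11 to 41, 3.10-fold (1.57 to 6.69). Both rest on more than 10 reads in each library. Exon 2 of the Krüppel-like factor gene Klf7 (chr1:64078707-64079334) had 3 and 20 reads, 5.55-fold (1.65 to 29.2). Exons 3 to 7 of Pias1 (chr9:62912750-62923655), an enzyme that attaches SUMO to transcription factors, had 3 and 21, 5.83-fold (1.74 to 30.5). In Pias1 the later libraries listed 49 and 26 reads, so 3 reads in the pseudoglandular library was the lowest of the 4.

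The remaining higher circles came from genes of varied function. Exons 3 to 5 of Ascc2 (chr11:4646562-4649869), a ubiquitin-binding subunit of the ASCC repair complex, had 2 and 22 reads, 9.16-fold (2.25 to 80.3). Ascc2 had 2 terminal sac and 4 alveolar reads, so the canalicular library was the high one. Exons 12 to 15 of Mrc1 (chr2:14288987-14294944), the mannose receptor of macrophages, had 2 and 17, 7.08-fold (1.68 to 63.1). Exons 3 to 6 of Nktr (chr9:121727316-121731565), a cyclophilin-like gene, had 2 and 16, 6.66-fold (1.57 to 59.7), and none in the later libraries. Exon 2 of Smad1, which carries the BMP signal, had 4 and 21, 4.37-fold (1.47 to 17.5). Exons 2 to 5 of Fech, the last enzyme of haem synthesis, had 3 and 20, as had exons 28 to 30 of Cep192, a scaffold of the centrosome. Both were 5.55-fold higher (1.65 to 29.2). A junction in exon 14 of Jup, the desmosomal plakoglobin, had 13 and 52, 3.33-fold (1.79 to 6.67), with neither end at an exon boundary.

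Lower circles included one of striated muscle. Exons 123 to 127 of Ttn (chr2:76853605-76856366), the sarcomere spring titin, had 38 pseudoglandular and 7 canalicular reads, a 6.52-fold lower share (95% interval 2.88 to 17.3). The later libraries listed 4 and 7 Ttn reads, so the pseudoglandular library was the high one. Exon 15 of Sppl2a, an intramembrane protease, had 21 and 2 reads, 12.6-fold lower (3.08 to 111), with neither end at an exon boundary. Exons 2 to 5 of Rbm33 (chr5:28331111-28339308), an RNA-binding protein, had 17 and 2, 10.2-fold lower (2.42 to 91.1), and 19 terminal sac reads. Exons 2 to 6 of Rapgef6 (chr11:54543579-54568496), an exchange factor for Rap GTPases, had 25 and 5, 6.01-fold lower (2.26 to 20.1). Exons 2 to 3 of Tlk1 (chr2:70770004-70786995), a kinase of chromatin assembly, had 15 and 2, 9.01-fold lower (2.10 to 81.2). For Rbm33, Rapgef6 and Tlk1 the terminal sac library listed 19, 20 and 14 reads, nearer to the pseudoglandular number than to the canalicular one.

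The other lower circles had 19 or fewer pseudoglandular reads, apart from that of Hdgfl3. Exons 2 to 5 of Hdgfl3, related to a hepatoma-derived growth factor, had 78 and 40 reads, 2.34-fold lower (1.58 to 3.52). It had 43 terminal sac and 5 alveolar reads. Exons 2 to 6 of Smad5, the second BMP Smad in this set, had 13 and 2 reads, 7.81-fold lower (1.77 to 71.3), and no reads in the later libraries. Exons 2 to 3 of Rtn4 (chr11:29705535-29708770), the reticulon Nogo, had 14 and 2, 8.41-fold lower (1.93 to 76.3). Exons 23 to 25 of Nemf (chr12:69320373-69322350), a ribosome rescue factor, and exon 2 of Mob3b each had 12 and 2, 7.21-fold lower (1.61 to 66.3). Exons 2 to 15 of Papola, the nuclear poly(A) polymerase, had 14 and 3, 5.61-fold lower (1.57 to 30.4). Exons 2 to 3 of Zfp407, a zinc-finger gene, had 19 and 4, 5.71-fold lower (1.90 to 23.1). Of the 12 lower circles 7 had 2 canalicular reads, the lowest number a list can show.

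**Figure D2:**
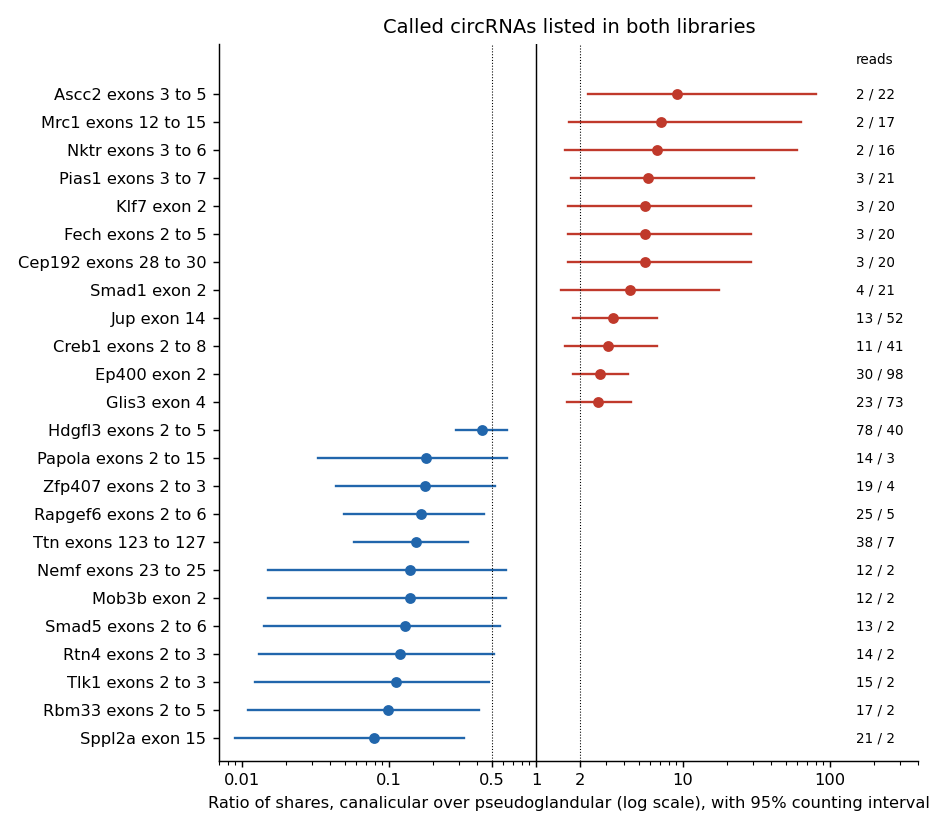
Ratio of the canalicular to the pseudoglandular share, on a log axis, for the 12 higher and 12 lower unmarked circles listed in both libraries that are described in the text, with 95% counting intervals as bars and pseudoglandular / canalicular reads at the right. The intervals are narrow for Ep400, Glis3 and Hdgfl3, which have over 20 reads in each library, and span more than 10-fold for circles with 2 or 3 reads in 1 of them.

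Some unmarked circles were read in 1 library of the pair only. The circle of exons 2 to 7 of Spopl, an adaptor of cullin 3 ubiquitin ligases, had 30 pseudoglandular and no canalicular reads, at least 12-fold lower, and 62 terminal sac reads. The 4 canalicular reads of the host Spopl came from another junction, which the pseudoglandular library did not list. A circle of exons 11 to 46 of Ttc3, a ubiquitin ligase gene, had no pseudoglandular and 28 canalicular reads, at least 7.77-fold higher. Only 1 of its ends lay at an exon boundary, and the later libraries listed 18 and 2 reads of it. A junction inside exon 1 of H19, the imprinted foetal RNA, had 20 and 0 reads, at least 8.01-fold lower, with neither end at an exon boundary. As a whole H19 went from 20 reads in 1 circle to 8 reads in 4 circles, 3-fold lower.

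The features of the higher and lower circles were close to those of the rest. Among unmarked circles with exon numbers, 43.3% of 60 higher, 56.7% of 67 lower and 50.8% of 746 other circles began at exon 2. Their median spliced lengths were 635, 606 and 657 bases, and their median genomic spans were 7716, 8467 and 9986 bases. A single exon made up 10%, 13.4% and 10.9% of them. The annotated start codon lay inside 31.7%, 34.8% and 26.1%. The median upstream intron was 14854, 13700 and 14378 bases long. These are descriptions with no test.

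Later stages, which had no part in choosing the circles, listed most of them. Of the 56 higher unmarked circles 54 were listed in the terminal sac library and 47 in the alveolar one, and of the 55 lower ones 51 and 44. Most of the 779 other unmarked circles listed in both were listed there too, 696 and 642 of them. These counts therefore say little about the called circles. The median share of the 56 was 0.0173% in the pseudoglandular and 0.0657% in the canalicular library by choice, and 0.0360% and 0.0265% in the later libraries. For the 55 it was 0.0616% and 0.0160% by choice, then 0.0277% and 0.0177%. The 779 other unmarked circles listed in both had medians of 0.0308%, 0.0320%, 0.0277% and 0.0212% in stage order. Both sets lay between their 2 chosen values at the terminal sac stage. Choosing circles by a difference between 2 libraries itself favours such a place, so no course by stage is drawn from it.

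The junction ratio sets a circle against the linear RNA at its own ends. It is 2 times the junction reads over that number plus the non-junction reads, given here in percent. It was compared for the 906 members listed in both libraries by an odds ratio, junction against non-junction reads, under the same 2-fold rule. In the canalicular library 99 ratios were higher, 10.9% of 906, and 44 were lower, 4.86%. The median ratio was 4.90% in the pseudoglandular and 5.50% in the canalicular library, and the median odds ratio was 1.18. Unlike the share, this measure does not depend on the total of the library.

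Most circles with a higher ratio had not been called by share. Of the 99, 42 were also higher by share and 57 were not called. Of the 44, 31 were also lower by share and 13 were not called. In no circle did the calls point opposite ways. Of the 56 higher unmarked circles 39 also had a higher ratio, and of the 55 lower ones 30 also had a lower ratio. The 2 measures share their junction reads and are not independent.

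Mrc1 led the higher ratios. Its circle had 353 non-junction reads in the pseudoglandular and 249 in the canalicular library, so its ratio went from 1.10% to 12%, an odds ratio of 9.92 (2.61 to 37.7). The ratio of the Ep400 circle went from 13.8% to 32.2%, 2.93-fold in odds (1.90 to 4.49), with 374 and 413 linear reads. That of Nktr went from 1.40% to 10.7%, 6.85-fold (1.79 to 26.2). In Mrc1 the linear reads at the circle's ends were fewer in the canalicular library while the junction reads were more.

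Other genes were high by ratio alone or came lower in the order by share. Exons 3 to 7 of Slf2, which helps to recruit the SMC5/6 complex to DNA, went from 0.80% to 7.4%, 8.05-fold in odds (2.09 to 31.0). A minor circle of Tulp4 went from 0.50% to 3.90%, 6.58-fold (2.04 to 21.2), on 3 and 14 junction reads. Exons 28 to 30 of Cep192 went from 1.5% to 10.1%, 6.38-fold (2.04 to 20). Exons 4 to 5 of the unnamed gene 2610307P16Rik went from 14.4% to 45.9%, 4.81-fold (1.89 to 12.2).

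Lower ratios were led by Rapgef6 and Sppl2a. The Rapgef6 circle went from 16% to 3.10%, 5.43-fold lower in odds (2.13 to 13.8), while its linear reads were 263 and 308. That of Sppl2a went from 48.3% to 9.10%, 7.66-fold lower (1.93 to 30.3). Exons 2 to 8 of Oma1, a protease of the inner mitochondrial membrane, had 13 and 3 junction reads beside 119 and 195 linear ones, 6.31-fold lower (1.91 to 20.9). Rbm33 was 6.51-fold lower (1.71 to 24.7) and Tlk1 6.45-fold (1.69 to 24.7). The order was completed by marked circles of Zfp638, at 2.10% and 0.30%, and of Tinag, at 18.6% and 7.2%.

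In 17 of the 56 higher and 25 of the 55 lower unmarked circles the share was called and the ratio did not pass the rule. The Ttn circle lost linear reads along with its junction reads, 122 and 28, and its ratio was 38.4% and 33.3%, an odds ratio of 0.84 (0.35 to 2.02). The Glis3 circle had 54 and 109 linear reads and ratios of 46.0% and 57.3%, an odds ratio of 1.56 (0.88 to 2.74). For Hdgfl3 the linear reads were 384 and 231 and the ratios 28.9% and 25.7%, an odds ratio of 0.86 (0.57 to 1.3). In these 3 genes junction and linear reads went the same way. Ratios of Smad1, 2.50% and 6.90%, and of Rtn4, 9.4% and 2.30%, had intervals that included 1.

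**Figure D3:**
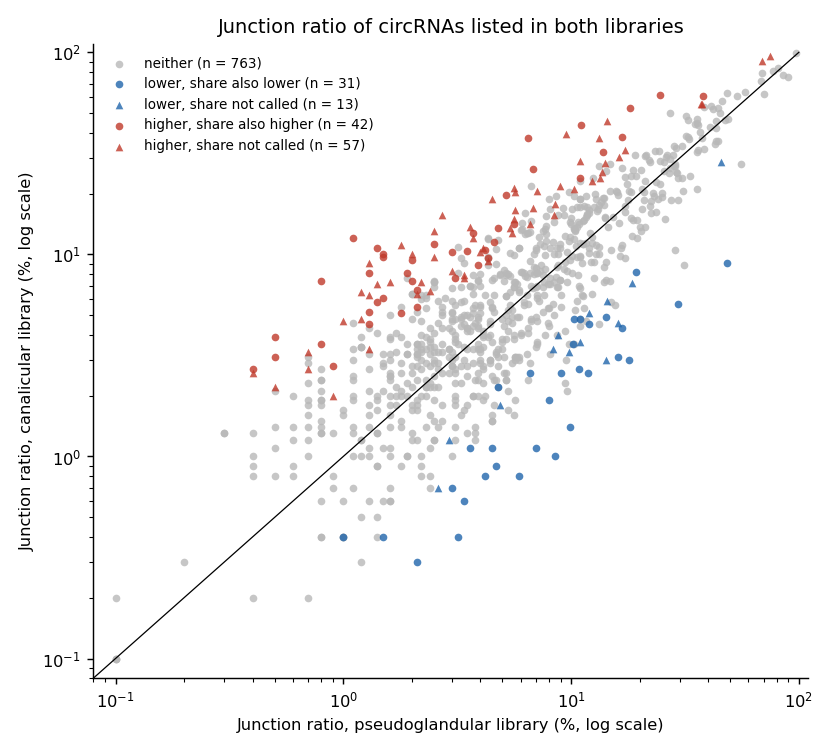
Junction ratio, in percent on log axes, of the 906 circRNAs listed in both libraries, pseudoglandular on x and canalicular on y, with the line of equality. Of the 99 circles with a higher ratio 57 (triangles) were not called by share, and of the 44 with a lower ratio 13 were not.

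A host that makes several circles can change which of them it makes. The junction reads of a circle were set against those of all other circles of the same host. This was done for 634 members of 340 hosts, where those other circles held 10 or more junction reads in the pair. By the same 2-fold rule with an exact interval of the odds ratio, 64 circles took a larger part of their host in the canalicular library, 10.1% of 634, and 61 a smaller part, 9.62%. They belonged to 97 hosts. For 105 of these 125 circles the host total itself was neither higher nor lower. Circles of 1 host divide a fixed total, so that when one takes more, another must take less.

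In 23 hosts circles were called in both directions, and in 14 of these a gaining and a losing circle shared one end exactly. In Eprs and Nlrp5-ps, which are among the 14, the other ends lay within 5 bases of each other. A marked circle was among the called ones in 5 of the 23 hosts. How often the circles of other hosts share an end was not counted. Ep400, Tut4, Lin54, Rad18, Slf2, Tlk1 and Rbm33 are given as examples and were picked after their values were seen. In Ep400 the circle of exon 2 alone rose from 30 of 74 to 98 of 143 host reads, 40.5% to 68.5%, an odds ratio of 3.18 (1.71 to 5.97). The circle of exons 2 to 3, with the same start, had 35 and 36 reads and went from 47.3% to 25.2%. Leaving out exon 3 thus became the more frequent form among Ep400 circles. In Tut4, a uridylating enzyme of small RNAs, exon 3 alone went from 48.2% to 70.3% while exons 3 to 4 went from 21.2% to 7.69%, on 18 and 7 reads. In Lin54, a DNA-binding subunit of the DREAM complex, exons 2 to 3 went from 8.70% to 33.3% and exons 2 to 4 from 91.3% to 62.2%. In Rad18, a ubiquitin ligase of DNA damage tolerance, exons 5 to 8 went from 44.7% to 73.7% and exons 5 to 9 from 44.7% to 18.4%. In all 4 genes the form that took more of the host was shorter by its last exon.

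The shift was not always towards the shorter circle. In Slf2 exons 3 to 7 had 2 and 14 reads, 11.1% and 66.7% of the host, while exons 4 to 7 had 10 and 2, 55.6% and 9.52%. In Tlk1 exons 2 to 12 went from 18% to 43.3% and exons 2 to 3 from 30% to 6.67%. Rbm33 circles with no shared exon parted as well: exons 8 to 10 went from 23 to 42 reads, 31.1% to 66.7%, and exons 2 to 5 from 23.0% to 3.18%. So the lower share of the Rbm33 circle given above stood beside a host total of 74 and 63 reads that was not called. Pias1, which was called in 1 direction alone, had a circle of exons 3 to 7 that went from 14.3% to 55.3% of the host, an odds ratio of 7.16 (1.68 to 44.3).

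Among the hosts that led the order was Ptprm, a receptor tyrosine phosphatase. Its circle of exons 15 to 17 had 3 of 31 pseudoglandular and 16 of 20 canalicular host reads, 9.68% and 80.0%, an odds ratio of 33.1 (6.14 to 265). An intron-type circle of Ptprm had 26 reads and none, and 21 in the alveolar library. In Ccdc88a, which codes for the actin-binding protein girdin, exons 20 to 26 were the only circle in the pseudoglandular library with 9 reads and had 3 of 15 canalicular ones. Exons 5 to 6 of Tanc1, a scaffold gene, went from 3 of 14 to all 10. The Ttc3 circle of exons 11 to 46 made up 9.89% of 283 canalicular reads of its host.

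A few calls of this kind rest on where the end was placed. In the pseudogene Nlrp5-ps one circle of exons 2 to 11 had 139 and 159 reads, and another that ended 4 bases earlier had 84 and none. With ends within 5 bases counted together they had 223 and 159 reads and were not called, and the call of the first against its host was lost with an odds ratio of 1.02. The remaining circles at the head of this order were marked: those of Col4a1, Col6a2, Smc4 and Phf21a among the gaining ones, and those of Col6a2, Serbp1, Stip1, Dhx9 and Col4a1 among the losing ones. In Col4a1 the circle of exons 35 to 39 went from 93.0% to 67.8% of the host, while 4 marked circles that the pseudoglandular library did not list took 16.6%, 6.91%, 5.26% and 3.45%.

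**Figure D4:**
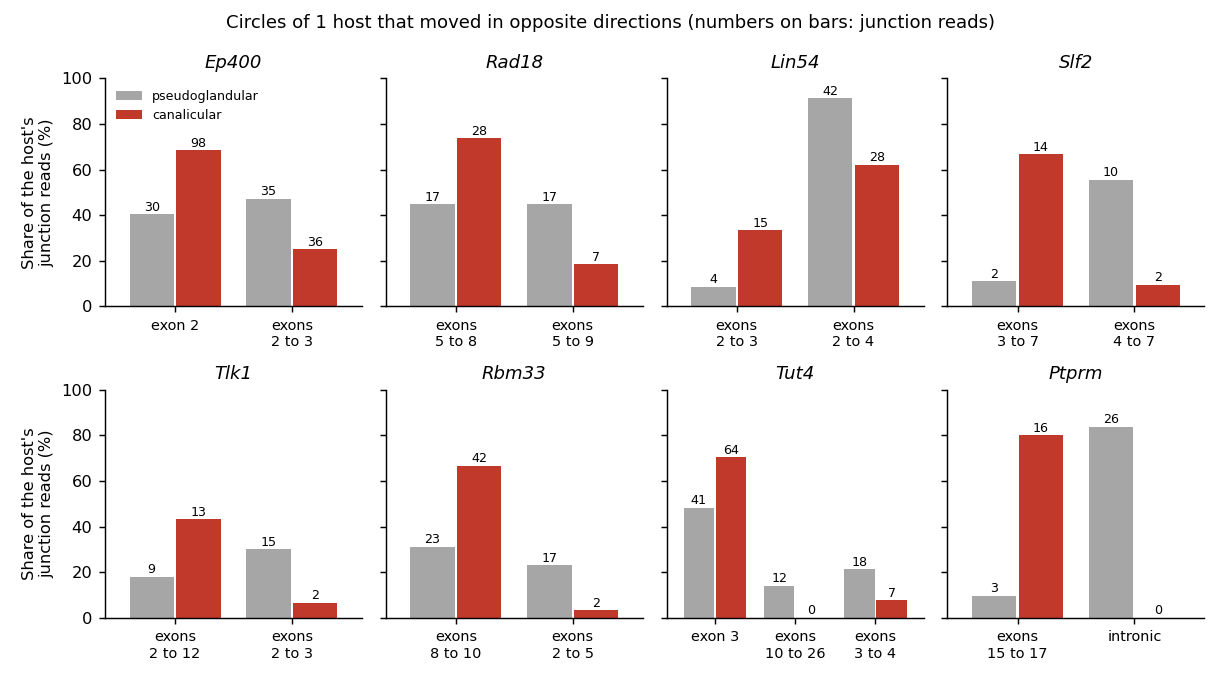
Share of the junction reads of the host taken by each called circle, in percent, for 8 hosts with circles called in both directions, pseudoglandular in grey and canalicular in red, with the junction reads above each bar. In Ep400, Rad18, Lin54 and Tut4 the circle without the last exon gained, in Slf2 and Tlk1 the longer one did, in Ptprm the exonic one, and the Tut4 circle of exons 10 to 26 is a marked circle.

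Junction reads were also summed over all circles of a host gene, with the same rule for the 1127 hosts that had 10 or more reads in the pair. In the canalicular library 100 hosts were higher, 8.87%, and 127 were lower, 11.3%. The median log2 ratio of all hosts was 0.0065. Scaled by non-junction reads the split was 169 and 100, and by a median of ratios 131 and 111, so it too turned with the scale. A bulk library cannot tell fewer cells of a type from less RNA in each cell.

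Akap10, an anchor of protein kinase A, led the hosts whose reads came from unmarked circles. It had 2 reads in 1 circle of the pseudoglandular and 34 in 5 circles of the canalicular library, 14.2-fold higher (3.63 to 122), and 35 and 23 reads in the later libraries. Ascc2 had 2 and 33, 13.7-fold (3.51 to 118). Trp53bp1, a factor of double-strand break repair, had 2 reads in 1 circle and 28 in 6, 11.7-fold (2.94 to 101). Fcho2, which shapes clathrin pits, had 3 in 1 circle and 24 in 8, 6.66-fold (2.02 to 34.5). Wdfy3, a scaffold of selective autophagy, had 3 in 1 and 25 in 6, and Fech 3 in 1 and 25 in 3, both 6.94-fold (2.12 to 35.9). Ccdc173, a coiled-coil gene, had none and 29, at least 8.05-fold higher. In Ascc2 and Fech most of the canalicular host reads, 22 of 33 and 20 of 25, came from the circle given above, while no circle of Fcho2 or Wdfy3 reached 10 reads in the pair.

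The reverse held for Tmtc2, which codes for an O-mannosyltransferase of the endoplasmic reticulum. It had 29 reads in 9 circles of the pseudoglandular and 3 in 1 circle of the canalicular library, 11.6-fold lower (3.60 to 59.6), and 26 and 4 in the later libraries. Ttn as a host had 62 reads in 8 circles and 11 in 2, 6.77-fold lower (3.54 to 14.3). Spopl had 30 and 4, 9.01-fold lower (3.18 to 35.2), and 66 in the terminal sac library. Gpc6, a glypican, had 20 and none, at least 8.01-fold lower, with 11 of the 20 in marked circles. Several hosts at the head of the order rested on marked circles, which gave 40 of 40 canalicular reads in Slc38a5, 34 of 36 in Col6a1 and 31 of 31 in Tln1. On the lower side they gave 42 of 44 pseudoglandular reads in Gnas, 40 of 49 in Fbn2, 20 of 22 in Sec61a1, 17 of 21 in Cald1 and 20 of 20 in Col4a5. Without marked circles the Fbn2 host was no longer called.

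Gene lists of pathways and cell types were read against these hosts. Each is given by its measured hosts, those with 10 or more reads, and its median log2 ratio beside 0.0065 for all hosts. Counts of called hosts are to be read against 8.87% higher and 11.3% lower of all 1127 hosts, and with few measured hosts in a list a share near these is no result about the list. A list of 52 chromatin regulators had 37 measured hosts, of which 1 was higher, 4 were lower and 32 were neither, so that lower hosts were about as frequent as among all hosts. Its median was -0.098 and was 0.077 when scaled by non-junction reads. Of the core subunits of the Polycomb complex that methylates histone H3, Suz12 had 11 and 2 reads, 6.61-fold lower, and Eed had 9 and 2, 5.41-fold lower. Its catalytic subunit Ezh2 had 180 and 157 and was not called. Setd2, which trimethylates lysine of histone H3, had 24 and 12, 2.40-fold lower. The acetyltransferase pair parted, with Crebbp at 16 and 42, 2.19-fold higher (1.20 to 4.16), and Ep300 at 9 and 2, 5.41-fold lower. Under the non-junction scaling Eed and Ep300 were no longer called, while the remodeller gene Chd9 was called higher at 2.35-fold, as it was by a median of ratios at 2.22-fold. The repressor genes Rere, with 189 and 201 reads, and Phf21a, with 153 and 197, were not called.

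Bone morphogenetic protein (BMP) and TGF-beta ligands act through paired receptors that phosphorylate Smad proteins, which join Smad4 and enter the nucleus, and both families shape lung branching. Of 21 genes 10 were measured, 2 higher, 2 lower and 6 neither, with a median of 0.37. The median was 0.55 when scaled by non-junction reads, and -0.21 over the 5 hosts with 20 or more reads. The BMP receptor Bmpr1b had 2 and 17 reads, 7.08-fold higher (1.68 to 63.1). The Smads that BMP receptors activate went opposite ways. Smad1 had 8 and 34, 3.54-fold higher (1.61 to 8.85), while Smad5 had 15 and 2, 9.01-fold lower (2.10 to 81.2). Smad4, the common partner, had 79 and 45, 2.11-fold lower (1.44 to 3.11), a call that was lost under both other scalings. Its circles of exons 2 to 4 and exons 2 to 5 had 37 and 21 and 13 and 0 reads. The receptor Acvr2a had 27 and 28 and the Smad anchor Zfyve9 30 and 35, neither of them called. In the terminal sac library Smad1 had 36 reads and Smad5 had none.

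Among fibroblast growth factor (FGF), Hedgehog and Notch genes 7 of 26 were measured. Sos1, the exchange factor that couples receptors to Ras, had 11 and 30 reads, 2.27-fold higher (1.11 to 5.02), and the other 6 were neither. Fgfr2, the receptor of lung epithelium for FGF10, had 46 and 78 reads, 1.41-fold (0.97 to 2.08). The median of the list was 0.49. Of 25 Wnt genes 3 were measured. The Wnt receptor Ror1 had 18 and 9 reads, 2.40-fold lower (1.03 to 6.07), a call lost under both other scalings, and Lrp6 with 90 and 86 and Ctnnb1 with 23 and 22 were not called. Of 16 insulin-like and foetal growth genes 6 were measured, with H19 and Gnas lower and a median of -0.50. The growth factor receptor Igf1r was called higher under both other scalings, at 2.31- and 2.18-fold, and not by share. That median was 0.33 without the marked circles that held most Gnas reads.

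Lung cell types were represented by few hosts. Etv5, a target of FGF signalling in distal epithelium that stands in both the alveolar type 2 and the epithelial factor lists, had no pseudoglandular and 18 canalicular reads. That was at least 4.99-fold higher, and the terminal sac library listed 6. All alveolar type 2 genes together had 2 and 24 reads, or 0.00770% and 0.0769%, with Etv5 giving 18 of the 24. Alveolar type 1 genes had 5 reads in each library. Among epithelial factors Nfix had 134 and 195 reads, Nfib 34 and 51 and Foxp1 18 and 19, none called, and the median of the 7 measured was 0.27. Esrp1, the epithelial splicing factor, had none and 13 reads, at least 3.61-fold, with an interval that included 1. Under both other scalings Esrp1 was called higher, at 4.07- and 3.85-fold. Airway genes had 21 and 30 reads.

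Endothelial and mesenchymal genes gave 1 higher host each. Pecam1, the adhesion molecule CD31 of endothelium, had 3 and 19 reads, 5.27-fold higher (1.55 to 27.8), and 22 and 39 in the later libraries. The whole endothelial list of 16 genes had 43 and 45 reads, and its other measured host Ldb2 had 18 and 13. Macf1, a linker of actin and microtubules, had 5 and 21, 3.50-fold higher (1.28 to 11.9). The other 4 measured mesenchymal hosts were not called, Zeb1 among them with 29 and 23, and the median was -0.26. In smooth muscle and pericyte genes Pde5a had 157 and 211 reads and Trpc6 18 and 25, neither called. The 1 lower host there was Cald1, and the median of -0.25 became 0.18 without marked circles.

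Extracellular matrix genes had 13 measured hosts, 2 higher and 5 lower, with a median of -0.69. Marked circles gave 411 of their 542 pseudoglandular and 682 of their 799 canalicular reads. Outside marked circles, Adamts9, a metalloprotease that cleaves versican, had 8 and 31 reads, 3.23-fold higher (1.45 to 8.12), 3 of them marked. Lama2, a laminin chain, had 11 and 2, 6.61-fold lower (1.44 to 61.4). Col4a1 had 298 and 608 reads, a ratio of 1.70, which was not called, with 283 and 608 of them in marked circles. Without those circles no canalicular read was left and the ratio was at most 0.17, called lower. By the earlier limit of fewer than 1 pattern per 10 reads, with repeat ends also left out, the Col4a1 ratio was 3.50, called higher, so its direction turned with the limit. Col3a1 had 18 and 3 reads, with 16 of the 18 marked.

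Of 12 immune genes 3 were measured, and all 3 were higher, though the list held few reads. Each of the 3 passed the minimum of 10 reads only through its canalicular reads. Their count therefore cannot be read against the 8.87% of all hosts. The genes of the list had 10 pseudoglandular and 60 canalicular reads, 0.0385% (95% Clopper-Pearson interval 0.0185 to 0.0708) and 0.192% (0.147 to 0.247). Mrc1 is given above. Elmo1, which drives engulfment through Rac, had 4 and 16 reads, 3.33-fold higher (1.07 to 13.7), with 2 reads of each library in marked circles. Mertk, a receptor for dying cells on macrophages, had none and 14, at least 3.88-fold higher. The median was 2.54, or 1.96 with Mertk at its bound.

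A junction in the T-cell receptor beta locus was also higher in the canalicular library. It lay at chr6:41539114-41547104 and had no deposited host. It was read 90 times in the canalicular library and not in the other 3, at least 25-fold higher (8.28 to 123). Mrc1, Elmo1 and Mertk, by contrast, had 10, 31 and 19 terminal sac reads. The junction begins at exon 2 of Trbc1 and ends at exon 1 of Trbc2, the neighbouring constant genes of the T-cell receptor beta chain. Exon 1 of these genes is identical at 374 of 375 bases, and exon 2 at 15 of 18. The next lines show exon 1 in lower case and exon 2 in capitals, because a spliced linear Trbc1 RNA would give the same letters as the junction, and Trbc2 would not.
Junction as listed: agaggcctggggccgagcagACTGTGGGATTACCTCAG
Linear Trbc1: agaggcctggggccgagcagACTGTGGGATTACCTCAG
Linear Trbc2: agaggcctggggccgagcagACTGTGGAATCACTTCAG

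Of 21 thymocyte genes, a list made after this junction was seen, 18 had no circRNA in either library. Satb1, an organiser of thymocyte chromatin, had 3 and 11 reads, Bcl11b 2 and 0, and Arpp21 0 and 2. The list as a whole had 5 and 13 reads, 0.0192% and 0.0416%. The reads of the immune list do not include this junction. Whether T-cell or thymic RNA had a part in the immune reads was not tested.

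Cardiac and striated muscle genes held a smaller share in the canalicular library. Of 14 genes 5 were measured, 2 were lower and 3 neither, with a median of -0.98. They had 212 and 134 reads, 0.816% (0.710 to 0.933) and 0.429% (0.360 to 0.508). Ttn, given above, had 62 and 11 of these reads, the largest change in reads among the measured hosts. Ryr2, the calcium release channel of heart muscle, had 11 and none, at least 4.41-fold lower. The calcium channel gene Cacna1c had 94 and 91 reads and the nebulin relative Nebl 20 and 12, neither called. The sodium-calcium exchanger Slc8a1 had 21 and 17 reads as a host and was not called. A circle of Slc8a1 exon 2 that has no deposited host, and so is in neither that sum nor the list total, was read 165 and 79 times, 2.51-fold lower (1.91 to 3.32). The later libraries listed 73 and 129 reads of it, so no steady course by stage was seen. The heart genes Myh6, Myh7, Actn2 and Tnnt2 had no circRNA in either library.

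Among cell cycle genes 1 host passed the rule. Of 38 genes 18 were measured, 17 neither and 1 lower, with a median of -0.068, or 0.11 when scaled by non-junction reads. The lower one was Nasp, a histone chaperone, with 10 and no reads, at least 4.01-fold, and it was lost under both other scalings. Under the same scalings Cep192, with 13 and 31 reads and 1.99-fold by share, was called higher instead, at 2.24- and 2.12-fold. The call thus passed from one gene to another with the scale, while the ratio of neither gene changed direction. Bub1b, a kinase of the spindle checkpoint, had 58 and 61 reads, Knl1 of the kinetochore 28 and 48, and the DNA topoisomerase gene Top2a 10 and 17. The list held 1.81% of pseudoglandular and 1.72% of canalicular junction reads.

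RNA-binding and splicing genes had 15 measured hosts, 1 higher, 3 lower and 11 neither, with a median of -0.38. Without marked circles the median was -0.066 and 2 hosts were lower. It was -0.20 when scaled by non-junction reads and -0.44 at a minimum of 20 reads. Zfr, a zinc-finger RNA-binding protein, had 17 and 43 reads, 2.11-fold higher (1.18 to 3.94). Ddx17, an RNA helicase, had 20 and 5, 4.81-fold lower (1.75 to 16.4). Mbnl2, a muscleblind splicing factor, had 16 and 4, also 4.81-fold lower (1.55 to 19.8). Dhx9, a helicase that unwinds the paired repeats flanking many circles, had 22 and 7 with 18 of the 22 in a marked circle, and its ratio without that circle was 1.46. The muscleblind gene Mbnl1, itself a well-known source of circles, had 13 and 15 reads, and Qk, whose protein promotes circle formation, had 13 and 12, neither called. Scaled by non-junction reads the splicing factor Rbm39 was called higher as well, at 2.10-fold.

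The remaining lists had too few measured hosts for a median. Erythroid genes had 16 and 32 reads, 25 of the latter from Epb41, which was not called. Neuronal genes had 56 and 52, cartilage genes none and 12, all from Sox6, and mesothelial genes none and 2. None of the hosts measured in these 4 lists was called by share, and Sox6 was called higher when scaled by non-junction reads, at 3.76-fold.

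**Figure D5:**
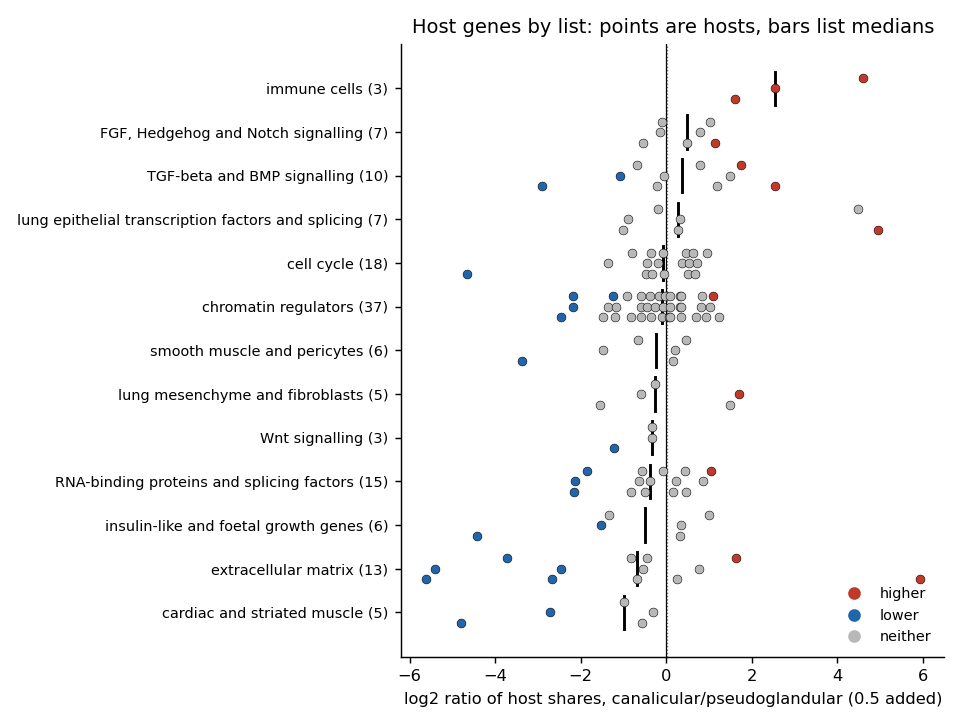
log2 ratio of host shares, canalicular over pseudoglandular, for the measured hosts of each list with 3 or more, with 0.5 reads added to each count. Points are hosts coloured by call, bars are list medians and the dotted line is the median of all hosts at 0.0065; the 3 immune hosts lie above 0 and the 5 cardiac hosts below it.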

How the data were processed

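The authors deposited, per the file headers, a raw count of junction reads and one of non-junction reads for each circRNA. The deposited ratio of the 2 is a fraction, and 0 values differed from those recomputed out of the counts. Column names match the circRNA caller CIRI. According to the submitters' processing notes the build was mm10 and the tools included BWA, HTSeq, StringTie, HISAT2 2.0.5 and cutadapt, with no roles stated and no further filter described. Every listed circRNA has 2 or more reads, so presence depends on depth.

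Chromosome, start and end defined a circRNA, since the files hold no strand. Host genes were the deposited identifiers, 3459 of 3464 of which are in GENCODE M21, 28 naming more than 1 gene. Exon numbers and sequences came from M21 transcripts. Named circles were the 15 leading higher and lower circles by the interval limit closer to 1, the 12 leading unmarked ones listed in both libraries, 10 hosts, 8 by junction ratio and 8 against the host in each direction, the 12 most abundant, and the called and most read hosts of 21 gene lists; not all of these are described, and some are not reported here. Members, rules and lists were chosen with earlier results of these data known. Odds ratios of the junction ratio used Woolf's interval with 0.5 added to each count, and those against the host the exact conditional interval. Calculations used Python 3.11.15, numpy 2.4.6, pandas 2.3.3 and scipy 1.17.1, figures matplotlib 3.10.9, and the code was tested on simulated data.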

Additional observations from a re-analysis of the deposited data

How the results depend on the processing

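With 1 library a stage no library could be left out. No paired analysis was possible because each stage has 1 library. Scaled by non-junction reads, 130 circles and 169 hosts were higher. With a minimum of 20 reads, 57 circles were higher and 43 lower by share and 71 hosts were higher and 61 lower, so that the higher ones became the more numerous, 61 junction ratios were higher and 23 lower, and 30 circles gained and 27 lost within their host. At that minimum 13 calls of hosts in the gene lists were lower. Among circles listed in both libraries alone, 56 were lower by share. A 3-fold limit gave 59 higher and 28 lower junction ratios. Fewer circles are tested or can pass in the last 3 settings by construction. Without repeat-end circRNAs and those with few patterns by the limit set after seeing the data, 69 circles were higher and 77 lower by share, 95 hosts were higher and 113 lower, and the Dhx9 host turned to a ratio of 1.456. By the earlier limit, fewer than 1 pattern per 10 reads, they were 82 and 92 circles. Merging junctions within 5 bases gave 84 and 101 circles. A junction ratio on few reads, or a fold against 2 or 3 reads, is limited by depth, as its interval shows.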
